A study of Mus musculus with 12 samples.

Results

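The 10 genes described here encode the core machinery that divides and joins mitochondria. They were the rows whose symbol in the deposited TPM table was Dnm1l, Fis1, Mff, Mief1, Mief2, Mtfr1, Mtfp1, Mfn1, Mfn2 or Opa1, 10 of 15767 genes, each joined to the count table by its gene identifier. RNA was sequenced from Neuro-2a, a mouse neuroblastoma line of WT genotype, transfected with a miR-155 mimic, a miR-155 inhibitor or a control small RNA (miR-Con), with 4 libraries in each group. RNA Fit was the transfection reagent for all 3 groups, the serum- and antibiotic-free medium was exchanged after 4 h, and the cells were grown until day 2. Libraries are named here by group and by the replicate number in the labels, which do not say what that number marks, and all of them come from 1 cell line in culture. The series title sets these genes in an axis of PPARγ, PGC-1α and ERRα acting on Drp1, the protein of Dnm1l, and names hypoxic/ischemic neuronal cells, while the labelled culture protocol names no hypoxia.

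Mitochondria form a network that is cut by fission and joined by fusion. In fission, the dynamin-related GTPase DRP1 is drawn from the cytosol to the outer membrane by receptors (MFF, FIS1, MIEF1 and MIEF2), where it assembles into rings and constricts the organelle. In fusion, the mitofusins MFN1 and MFN2 join the outer membranes and OPA1 joins the inner membranes and shapes the cristae. Neurons depend on this balance to deliver mitochondria into their processes.

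The mouse miR-155 sequences and their matches in the genes' 3′ UTRs are shown because a miRNA recognises its targets mainly through its seed. The 2 mature arms of Mir155, from RefSeq on GRCm38.p6, lie on the plus strand at chr16:84714143-84714165 for the 5p arm and chr16:84714182-84714202 for the 3p arm, with the seed (bases 2 to 8) in capitals. The labels do not say which arm the mimic and the inhibitor represent, and the level of the miRNA was not analysed here, so the delivery of either agent was not checked.
mmu-miR-155-5p: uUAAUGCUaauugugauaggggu
mmu-miR-155-3p: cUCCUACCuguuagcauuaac

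The longest annotated 3′ UTRs of Dnm1l, Mfn1 and Opa1 each held a 7-base site for the 5p arm, and that of Mief1 a 6-base one. The sites of Mfn1 and Opa1 pair with all of bases 2 to 8, while that of Dnm1l pairs with bases 2 to 7 and has an A opposite base 1. The stretches below, read 5′ to 3′ from GENCODE M21 transcripts on GRCm38, have each site in capitals.
Dnm1l: aatgacttcctGCATTAAaaacaactat
Mfn1: gccttgtcttAGCATTAgtttggagtaa
Opa1: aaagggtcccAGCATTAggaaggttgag
Mief1: acatttccttgGCATTAtgacttgataa

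These matches began at base 628 of 1757 in the 3′ UTR of Dnm1l, base 169 of 2098 in Mfn1, base 1580 of 3141 in Opa1 and base 2761 of 3236 in Mief1. The longest 3′ UTRs of the other 6 genes held no 6-base match. Besides the sites shown, those of Dnm1l and Mfn1 each held a separate 6-base match, at base 570 and base 1915. Sites of either 7-base kind are common, since 13.1% of 12921 tested genes with an annotated 3′ UTR held one, as did 18.6% of the 3727 whose 3′ UTR was 1500 to 3500 bases long. A match is a run of letters and not evidence of binding. The ERR motif TCAAGGTCA and its core AAGGTCA, searched on both strands, were not found in the 250 bases upstream of the 9 genes that the promoter table holds, where 0.387% and 4.08% of 32851 promoters held them. Counted by gene, 0.422% and 4.70% of 27025 genes held them, so their absence from 9 genes says little. The core is part of the longer motif.

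The libraries held 60695388 to 74200532 counts, with 13669 to 13836 genes detected. Of the neuronal and neuroblastoma markers, 7 of 10 reached 1 TPM (transcript abundance scaled for gene length and depth), with Hand2, Stmn2 and Tubb3 among them, while Nefm was at 0 in 7 and Nefl in 11 of the 12 libraries. The markers summed to 4360 to 4543 TPM in mimic, 4228 to 4522 TPM in inhibitor and 4186 to 4388 TPM in control libraries. Fibroblast markers summed to 0.807 to 1.73 TPM, glial markers to 3.43 to 4.95 TPM and immune and endothelial markers to 1.74 to 3.04 TPM. Of the title's axis, Pparg (10.7 to 18.8 TPM) and Esrra (42.4 to 68.7 TPM), which encode PPARγ and ERRα, were detected in all 12 libraries. Ppargc1a, which encodes PGC-1α, was detected with 5 counts in control 2 alone and stood at 0 elsewhere. In bulk RNA, fewer cells that express a gene and less RNA per cell cannot be told apart.

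All 10 genes were expressed in all 12 libraries, and the lowest count was 963. The GTPase that performs fission was among the lowest of them, while its outer-membrane receptor Fis1 was far above it. Mtfp1, an inner-membrane protein that promotes fission, was highest at 141 ± 14.1 TPM (SD, n = 12). Mfn2 followed at 99.6 ± 1.81 TPM and Fis1 at 95.5 ± 10.2 TPM, and this pair did not differ beyond their spread, Mfn2 being higher in 6 of 12 libraries.

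Mtfr1, a regulator of mitochondrial shape, and the DRP1 receptor Mief1 came next at 47.6 ± 5.02 and 45.6 ± 4.57 TPM, also within their spread. Mief2, the paralog of Mief1, stood at 35.9 ± 4.56 TPM. The lowest levels belonged to Opa1 at 23.8 ± 3.36, Mff at 23.5 ± 1.73, Dnm1l at 21.9 ± 3.88 and Mfn1 at 18.4 ± 2.34 TPM (SD, n = 12 each). No neighbours among these last genes differed by more than the larger of their SDs, although Dnm1l was above Mfn1 in 12 of 12 libraries.

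**Figure D1:**
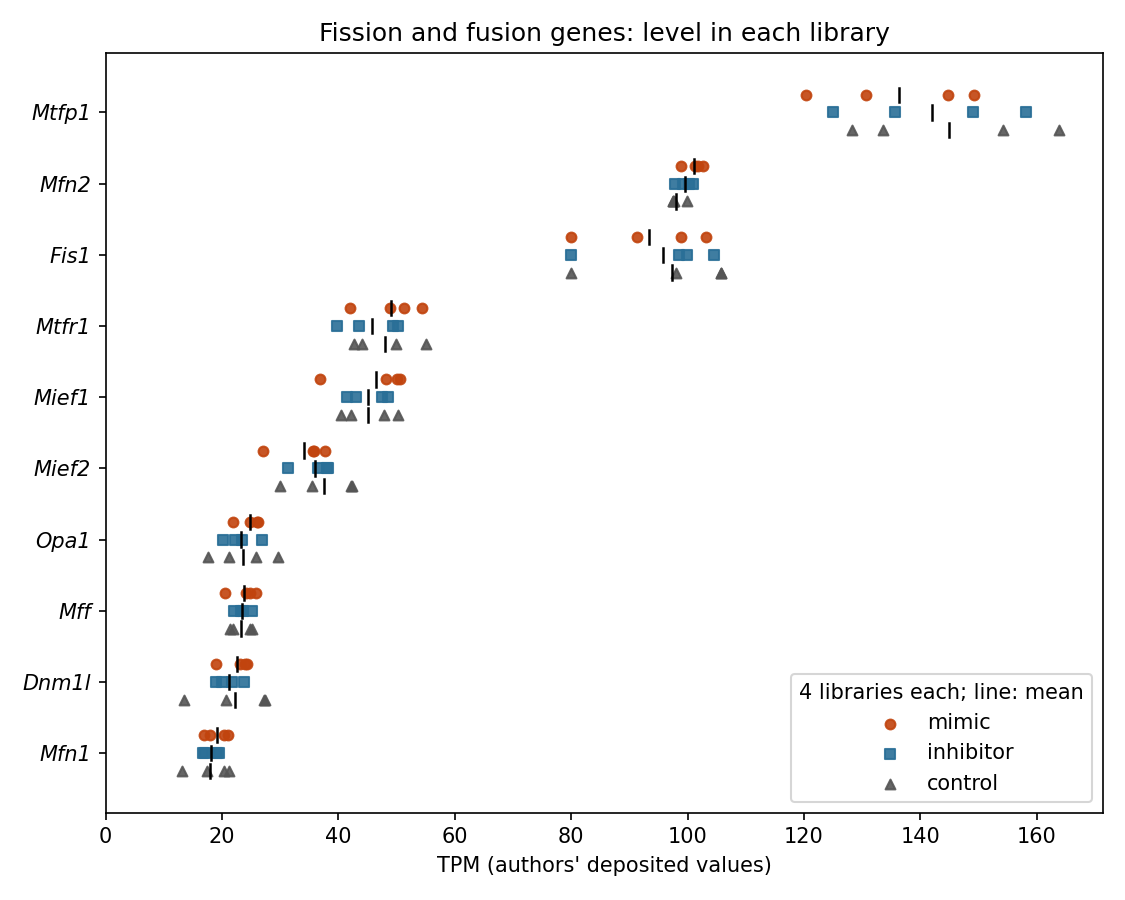
TPM of each gene in the 12 libraries (horizontal axis), with mimic, inhibitor and control libraries on separate rows and a short line at each group's mean. Mtfp1 averages 141 TPM and Mfn1 18.4 TPM, and the 3 groups overlap for every gene.

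The genes differed in how steady they were. By CPM (counts scaled to library size with TMM factors, not for gene length), Dnm1l had a coefficient of variation of 16.0% over the 12 libraries, the largest of the 10, and its highest library was 1.89 times its lowest. That rank rests on control 2: without it, a setting added after the data had been seen, the value was 11.9% for Dnm1l and 12.1% for Mief2. With the GC and length offsets given with the GC values, the SD of log2 CPM of Dnm1l was 0.126 in place of 0.248, under those of Mief2 (0.166), Mief1 (0.139) and Mtfr1 (0.134). That order depended on the version of the offsets. With the longest transcript of any kind, Dnm1l was at 0.142, under Mff (0.175) and Mief2 (0.167) but above Mief1 (0.132) and Mtfr1 (0.127). Mfn2, which also tethers mitochondria to the endoplasmic reticulum, had the smallest at 2.40%. The median over the 7730 tested genes at least as abundant as the lowest of these 10 was 9.49%, with Dnm1l, Mief2, Opa1, Mtfp1, Fis1 and Mfn1 above it and Mtfr1, Mief1, Mff and Mfn2 below.

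The mitofusins were unequal in level, with an Mfn2 to Mfn1 ratio in TPM of 5.50 ± 0.756 (SD, n = 12) and a range of 4.59 to 7.43. The ratio of Mief1 to Mief2 was closer to even at 1.28 ± 0.132 and ranged from 0.998 to 1.42.

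The first question the design poses is whether raising or blocking miR-155 altered this machinery. None of the 10 genes was called between any 2 transfection groups, and the groups overlapped for each. By edgeR's quasi-likelihood test with Benjamini-Hochberg adjustment over 13014 genes, 0 of 10 passed an adjusted p of 0.05 in each of the 3 comparisons, against a background of 0% of all tested genes in each. The number of genes whose groups did not overlap in CPM was 0 of 10 in each comparison, against 0.653% of tested genes for mimic against control, 0.653% for inhibitor against control and 0.899% for mimic against inhibitor. At an unadjusted p under 0.05 the count was 0 of 10 in each. Over the 13014 tested genes it was 71 for mimic against control, 67 for inhibitor against control and 77 for mimic against inhibitor. These are far smaller shares than the 0.05 that evenly spread p-values would give, so 0 of 10 at this mark says little. DESeq2 called 2, 0 and 4 genes of the whole table in these comparisons.

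Dnm1l, the gene the title names, had 76.3, 76.9, 62.5 and 77.1 CPM in mimic libraries 1 to 4, 64.2, 70.5, 65.9 and 78.8 CPM in inhibitor libraries 1 to 4, and 87.3, 47.0, 68.1 and 88.6 CPM in control libraries 1 to 4. The control libraries held both the lowest value, in control 2, and the highest, in control 4, so the mimic and inhibitor values all lay inside the control range. The mean was 73.2 ± 7.15 CPM in mimic, 69.8 ± 6.57 CPM in inhibitor and 72.7 ± 19.6 CPM in control libraries (SD, n = 4 each).

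The Dnm1l difference from control was 0.474 CPM for mimic (exact two-sided permutation test, p = 1) and -2.89 CPM for inhibitor (exact permutation p = 0.8). Between mimic and inhibitor it was 3.37 CPM (exact permutation p = 0.486), and adjusted over these 3 tests each p was 1, where the smallest p that 70 splits allow is 0.0286. The fitted log2 fold change was 0.01 for mimic against control, with a 95% interval of -0.35 to 0.37, and -0.06 for inhibitor against control, with an interval of -0.42 to 0.30. Single libraries turned both signs: the mimic difference ran from -8.11 CPM without control 2 to 5.77 CPM without control 4, and the inhibitor difference from -11.5 CPM to 2.40 CPM without the same libraries.

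Among the DRP1 receptors, Mief2 had 20.7, 19.9, 20.6 and 15.9 CPM in mimic libraries 1 to 4, 22.5, 20.7, 21.9 and 18.2 CPM in inhibitor libraries 1 to 4, and 19.7, 25.7, 24.4 and 17.1 CPM in control libraries 1 to 4. Number 4 was the lowest in every group, and the groups overlapped. Its log2 fold change of -0.18 for mimic against control (95% interval -0.47 to 0.12) was the largest in size of the 30 values over the 3 comparisons, and it was not called (edgeR adjusted p = 1.00).

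None of the other receptors was called either. Fis1 gave a log2 fold change of -0.09 for mimic against control and -0.03 for inhibitor against control. Mief1 gave 0.01 and 0.0010 and Mff gave 0.0039 and 0.01 in the same order of comparisons.

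None of the fusion genes was called between groups. Mfn2 had 264.6, 267.8, 273.2 and 272.2 CPM in mimic libraries 1 to 4, 272.2, 267.0, 267.0 and 275.0 CPM in inhibitor libraries 1 to 4, and 255.2, 279.1, 270.4 and 261.2 CPM in control libraries 1 to 4. All 3 groups lay within the span of the control libraries. Its interval was the narrowest, a log2 fold change of 0.02 for mimic against control with bounds of -0.09 and 0.12.

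Opa1 and Mfn1, which hold 7-base seed matches, gave log2 fold changes of 0.05 and 0.06 for mimic against control and -0.01 and 0.02 for inhibitor against control. For mimic against control their 95% intervals were -0.24 to 0.33 and -0.19 to 0.31. Over the 10 genes the median log2 fold change was 0.0076 for mimic against control, -0.02 for inhibitor against control and 0.00081 for mimic against inhibitor, against -0.0068, -0.0099 and 0.0024 over all tested genes. The first 2 comparisons share the control libraries. A p that misses the threshold does not show that levels were equal, and the intervals give the sizes these libraries leave possible. These intervals come from a group-only model, in which differences between replicate numbers count as spread.

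**Figure D2:**
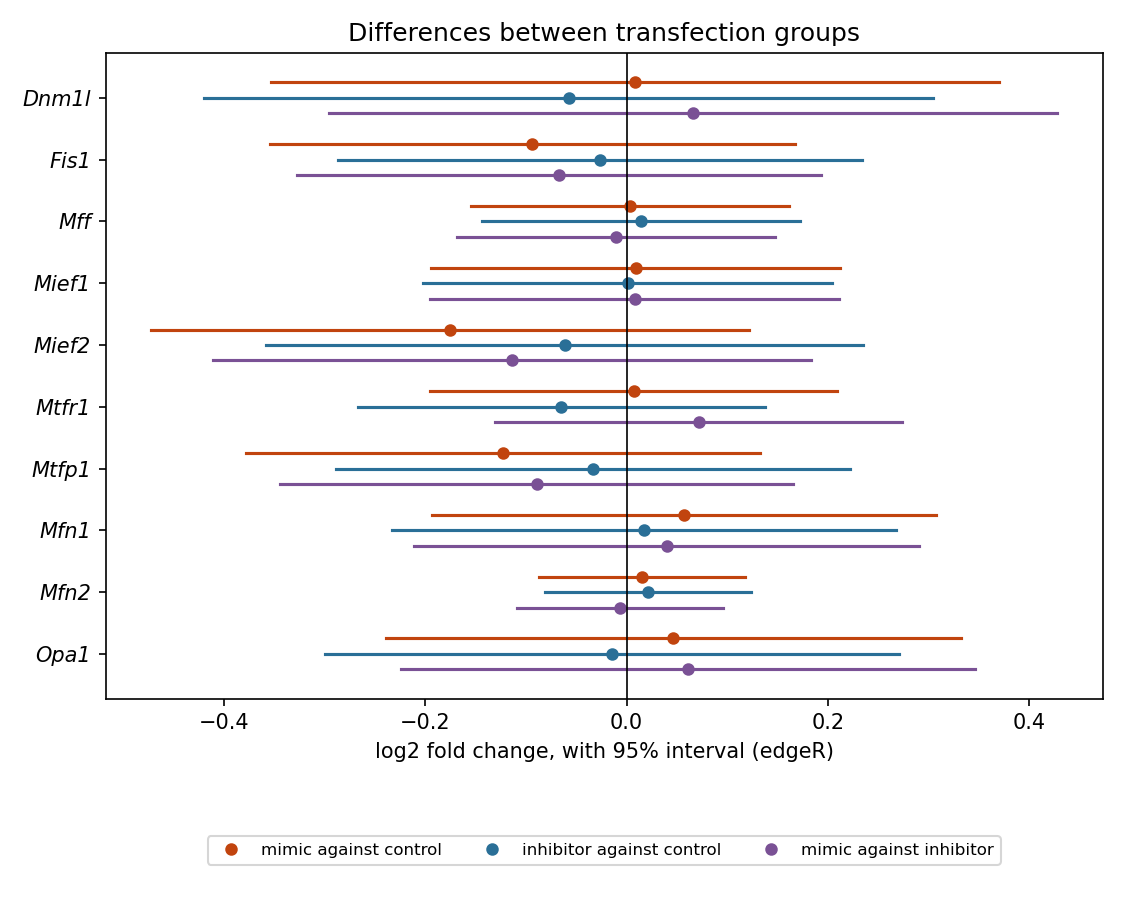
log2 fold change (horizontal axis) with its 95% interval from edgeR for each gene and each of the 3 comparisons. Every interval includes 0, with Dnm1l among the widest, from -0.35 to 0.37 for mimic against control, and Mfn2 the narrowest.

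The levels did move with the replicate number. Number 4, a single library in each group, was set against numbers 1 to 3 in a model with group and number as terms. The contrast was singled out with earlier results of these data known, and the labels give no reason for it. At an edgeR adjusted p under 0.05, 6 of 10 genes were called, 5 lower and 1 higher in number 4, where 41.5% of all tested genes were called, 20.4% higher and 21.1% lower. These 6 were also the genes whose number 4 libraries did not overlap with numbers 1 to 3, as was so for 37.1% of tested genes, 17.5% above and 19.6% below. With 10 genes, a count of 6 is near that background.

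The one fusion gene called, Opa1, had 101.2, 103.1 and 111.5 CPM in the mimic, inhibitor and control libraries of number 4, against a lowest of 70.6, a median of 84.3 and a highest of 94.8 CPM in numbers 1 to 3. Every number 4 library was above all 9 others. The log2 fold change was 0.31 (SE 0.0806, edgeR adjusted p = 0.00936). By limma on log2(TPM + 1) the adjusted p was 0.0643, which loses the call, and with offsets for GC content and length the log2 fold change was 0.14.

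Fis1 went the other way, with 57.2, 56.7 and 55.7 CPM in the mimic, inhibitor and control libraries of number 4, against a lowest of 61.1, a median of 69.9 and a highest of 78.7 CPM in numbers 1 to 3. The log2 fold change was -0.31 (SE 0.0708, edgeR adjusted p = 0.00478), and the ratio of Opa1 to Fis1 in TPM was 0.345 ± 0.0228 in number 4 (SD, n = 3) and 0.226 ± 0.0374 in numbers 1 to 3 (SD, n = 9). That ratio pairs the gene called higher with a gene called lower, so its difference restates those calls. The number 4 values of Fis1 lay close together, below every other library.

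The receptor pair Mief1 and Mief2 fell as well. Mief1 had 124.1, 138.4 and 132.8 CPM in the mimic, inhibitor and control libraries of number 4, against a lowest of 146.8, a median of 158.3 and a highest of 165.8 CPM in numbers 1 to 3, a log2 fold change of -0.24 (SE 0.0528, edgeR adjusted p = 0.00357). Mief2 fell by 0.35 on the log2 scale (SE 0.0862, edgeR adjusted p = 0.00773). Neither overlapped between number 4 and the rest.

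Mtfr1 and Mff completed the called genes. Mtfr1 had 73.5, 68.9 and 74.9 CPM in the mimic, inhibitor and control libraries of number 4, against 77.1 to 91.7 CPM in numbers 1 to 3, and Mff had 76.6, 81.2 and 79.4 CPM against 82.6 to 92.3 CPM. Their log2 fold changes were -0.22 (edgeR adjusted p = 0.0119) and -0.15 (adjusted p = 0.0334). The call of Mff was lost without any 1 of 7 libraries: mimic 1, mimic 3, mimic 4, inhibitor 2, inhibitor 4, control 3 or control 4.

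The remaining 4 genes did not pass. Dnm1l gave 0.26 (edgeR adjusted p = 0.142), Mtfp1 -0.22 (adjusted p = 0.0722), Mfn1 0.07 (adjusted p = 0.607) and Mfn2 0.01 (adjusted p = 0.861), all as log2 fold changes. Mfn1 was split by group, with number 4 minus the mean of numbers 1 to 3 at -0.16 in mimic, 0.12 in inhibitor and 0.23 in control libraries on the log2 scale. That difference between groups was not tested.

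The count of called genes ranged from 3, without inhibitor 4 or without control 4, to 8, without control 2, where Dnm1l (edgeR adjusted p = 0.0268) and Mtfp1 (adjusted p = 0.0448) joined. The count over all tested genes moved likewise, from 3690 without control 4 to 6589 without control 2, against 5399 with every library. The calls of Mtfr1 and Opa1 were lost without inhibitor 4, that of Mtfr1 also without mimic 4, and those of Mief2 and Opa1 without control 4. Testing all 4 numbers at once, without singling one out, called 3 of 10 genes (Fis1, Mief1 and Mief2), against 27.3% of all tested genes. That count was 0 without any 1 of mimic 3, mimic 4, inhibitor 4, control 3 or control 4, and 7 without control 2. Over all tested genes it ran from 1807 without inhibitor 4 to 5884 without control 2, against 3547 with every library.

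**Figure D3:**
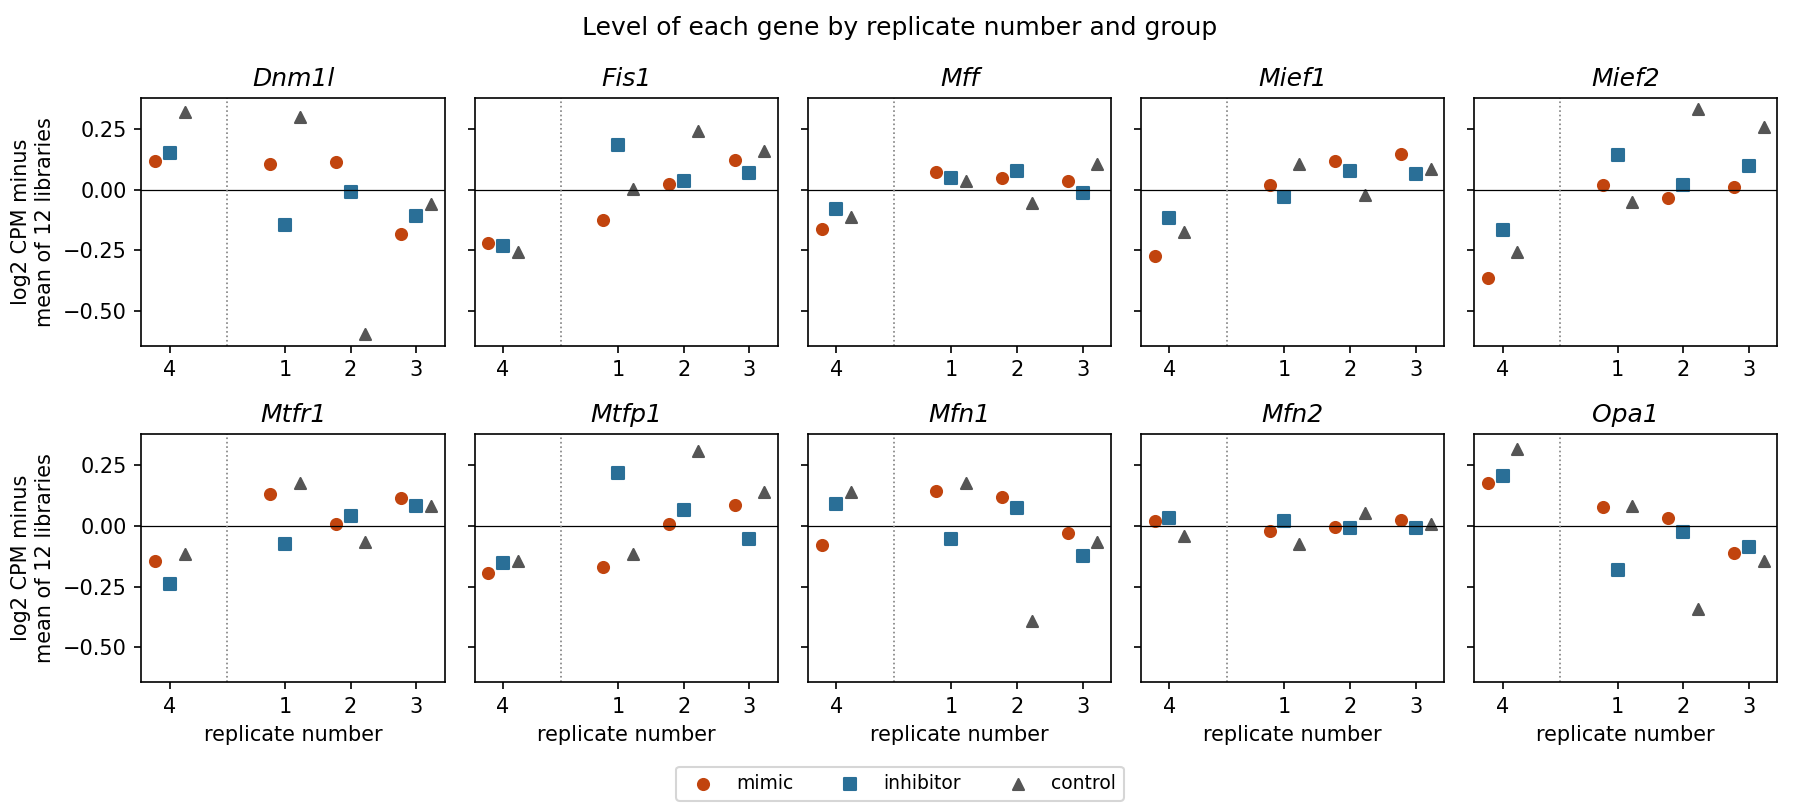
log2 CPM of each gene minus its mean over 12 libraries (vertical axis) by replicate number (horizontal axis), with a symbol for each group and number 4 left of the dotted line. Opa1 is above all other libraries in number 4, and Fis1, Mff, Mief1, Mief2 and Mtfr1 are below them, while Dnm1l has its lowest point in control 2.

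The base composition of the transcripts moved with the low values of control 2 and, less evenly, with the number 4 difference. Tested genes were divided by GC content into 5 bins of equal size. In the bin of lowest GC the median log2 fold change of number 4 was 0.13, against -0.08 in the fourth bin and -0.04 in the bin of highest GC. The called genes did not all follow their bins, since Mtfr1 (44.2% GC, bin median 0.13) was at -0.22 and Mff (46.0% GC, bin median 0.03) at -0.15. The median difference of control 2 from controls 1 and 3 was -0.35 in the lowest bin, against 0.20 in the highest. Dnm1l, at 40.9% GC in its longest coding transcript, stood at -0.71 in control 2 relative to controls 1 and 3, with Mfn1 (45.9% GC) at -0.45 and Opa1 (43.5% GC) at -0.31. The GC-rich Mtfp1 (54.7%) and Mief2 (57.6%) stood at 0.29 and 0.23.

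With offsets for GC content and transcript length added, the control 2 difference was -0.35 for Dnm1l, -0.24 for Mfn1 and 0.06 for Opa1 on the log2 scale. In the same fit 7 of the 10 genes were called for number 4, with Opa1 at 0.14 (edgeR adjusted p = 0.00707) and Fis1 at -0.21 (adjusted p = 0.000913), both closer to 0 than without the offsets. Mief1 at -0.28, Mtfr1 at -0.26 and Mff at -0.17 were farther from 0, and Mief2 was at -0.32. Dnm1l, at 0.17 (adjusted p = 0.0268), joined the 6. The same 7 genes were called when the offsets used the longest transcript of any kind, the version run first. The share of all tested genes called with either version is not given here, so the count of 7 was not set against a background. These offsets were added after the data had been seen, and what sets the GC relation was not tested.

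**Figure D4:**
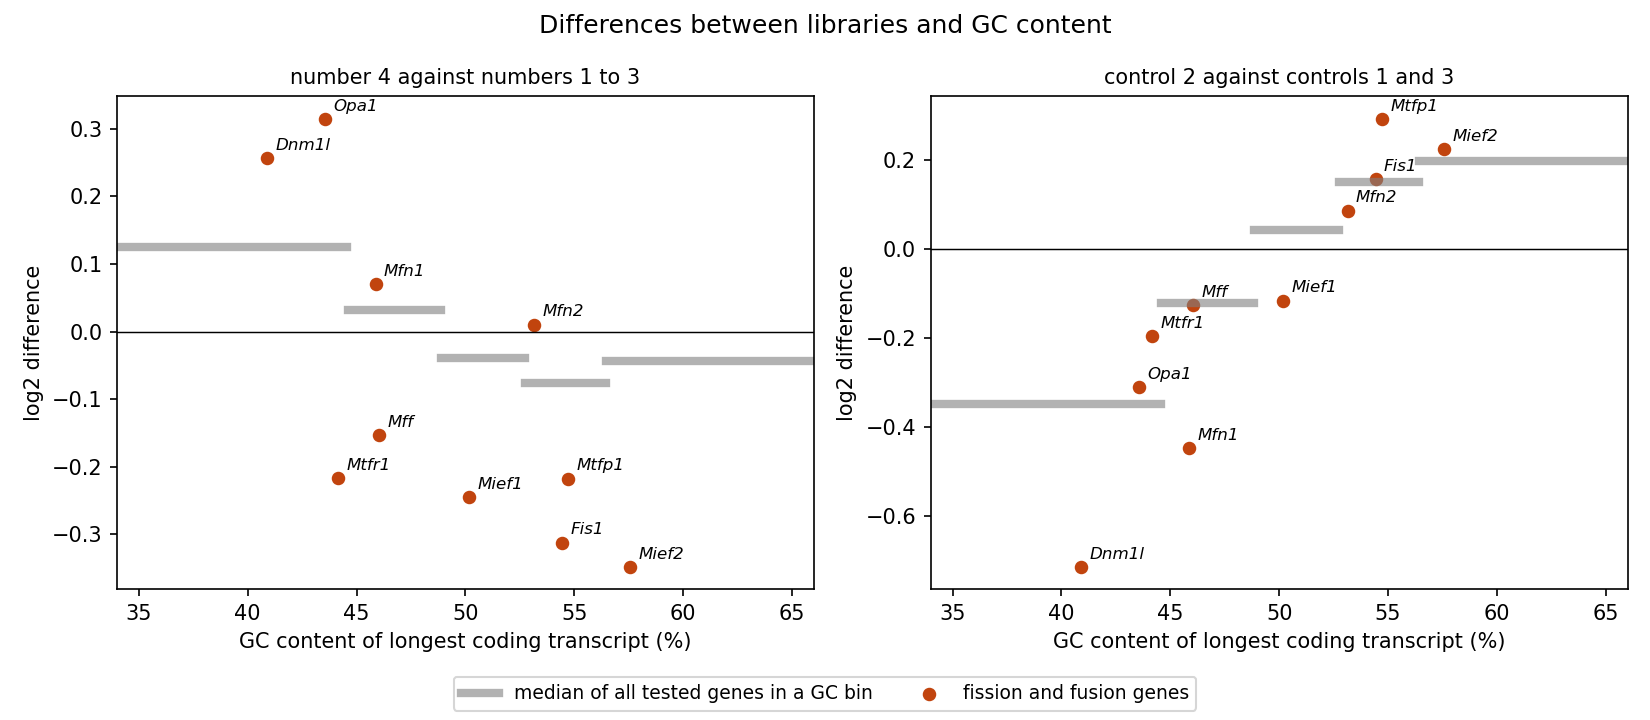
log2 difference (vertical axis) against the GC content of the longest coding transcript in % (horizontal axis) for number 4 against numbers 1 to 3 (left) and control 2 against controls 1 and 3 (right). Points are the 10 genes and grey bars are medians of all tested genes in 5 GC bins, which lie between 0.13 and -0.08 on the left and between -0.35 and 0.20 on the right, and Dnm1l is the lowest point on the right at -0.71.

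Over the 12 libraries, Strn3 and Ppp4r2 were among the genes whose profile was most like that of Dnm1l. Likeness was the root mean square difference of centred log2 CPM, which was 0.0443 for Strn3 and 0.0489 for Ppp4r2, against a median of 0.302 over the 12557 genes searched. Both had their lowest value in control 2, as Dnm1l did, which follows from choosing them by likeness over these same libraries. Within the machinery, the fusion genes Opa1 (0.108) and Mfn1 (0.120) were nearest to Dnm1l, with 2.77% and 4.20% of genes nearer than they were, and the other 7 ranged from 0.261 to 0.402. The 12 points are libraries that differ in depth and in their GC relation, and the likeness is given as a description.

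The wider network held 48 genes in 5 lists: other fission and constriction factors, modifiers of DRP1, fusion helpers and OPA1 proteases, cristae organisers (the MICOS complex and its partners), and mitochondrial transport. In each transfection comparison 0 of 48 were called by edgeR, and 0 had an unadjusted p under 0.05. Few of all 13014 tested genes reached that mark either, as given above, so these counts of 0 say little. The smallest p for mimic against control belonged to Camk1, a calmodulin-dependent kinase, at a log2 fold change of -0.13, that for inhibitor against control to Oma1, a protease that cleaves OPA1, at -0.25, and that for mimic against inhibitor to Mtx1, an outer-membrane import protein, at -0.18.

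Between number 4 and numbers 1 to 3, 15 of 48 network genes were called by edgeR, 5 higher and 10 lower, which is 31.2% against the 41.5% of all tested genes. By list, the calls were 1 of 7 other fission factors, 5 of 14 DRP1 modifiers, 4 of 10 fusion helpers and proteases, 3 of 12 cristae genes and 2 of 5 transport genes. Miga2, which promotes fusion at the outer membrane, fell to 85.0 ± 0.935 CPM in number 4 (SD, n = 3), against 128.1 ± 11.1 CPM in numbers 1 to 3 (SD, n = 9), a log2 fold change of -0.59. Usp30, a mitochondrial deubiquitinase, fell by 0.42 and Inf2, a formin that builds actin at fission sites, by 0.33 on the log2 scale.

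Yme1l1, another protease that processes OPA1, had 123.1 to 142.4 CPM in number 4, against 65.9 to 113.6 CPM in numbers 1 to 3, and rose by a log2 fold change of 0.45. Kif5b, the kinesin that carries mitochondria along axons, was 0.49 higher (edgeR adjusted p = 0.0335), while Rhot2, an outer-membrane adaptor for such motors, fell by 0.37. The Kif5b libraries overlapped, with 90.2 to 120.2 CPM in number 4 and 48.3 to 97.5 CPM in numbers 1 to 3. Among cristae genes Chchd3 was higher by 0.25 and Dnajc11 lower by 0.38 on the log2 scale, so calls ran in both directions in 4 of the 5 lists.

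**Figure D5:**
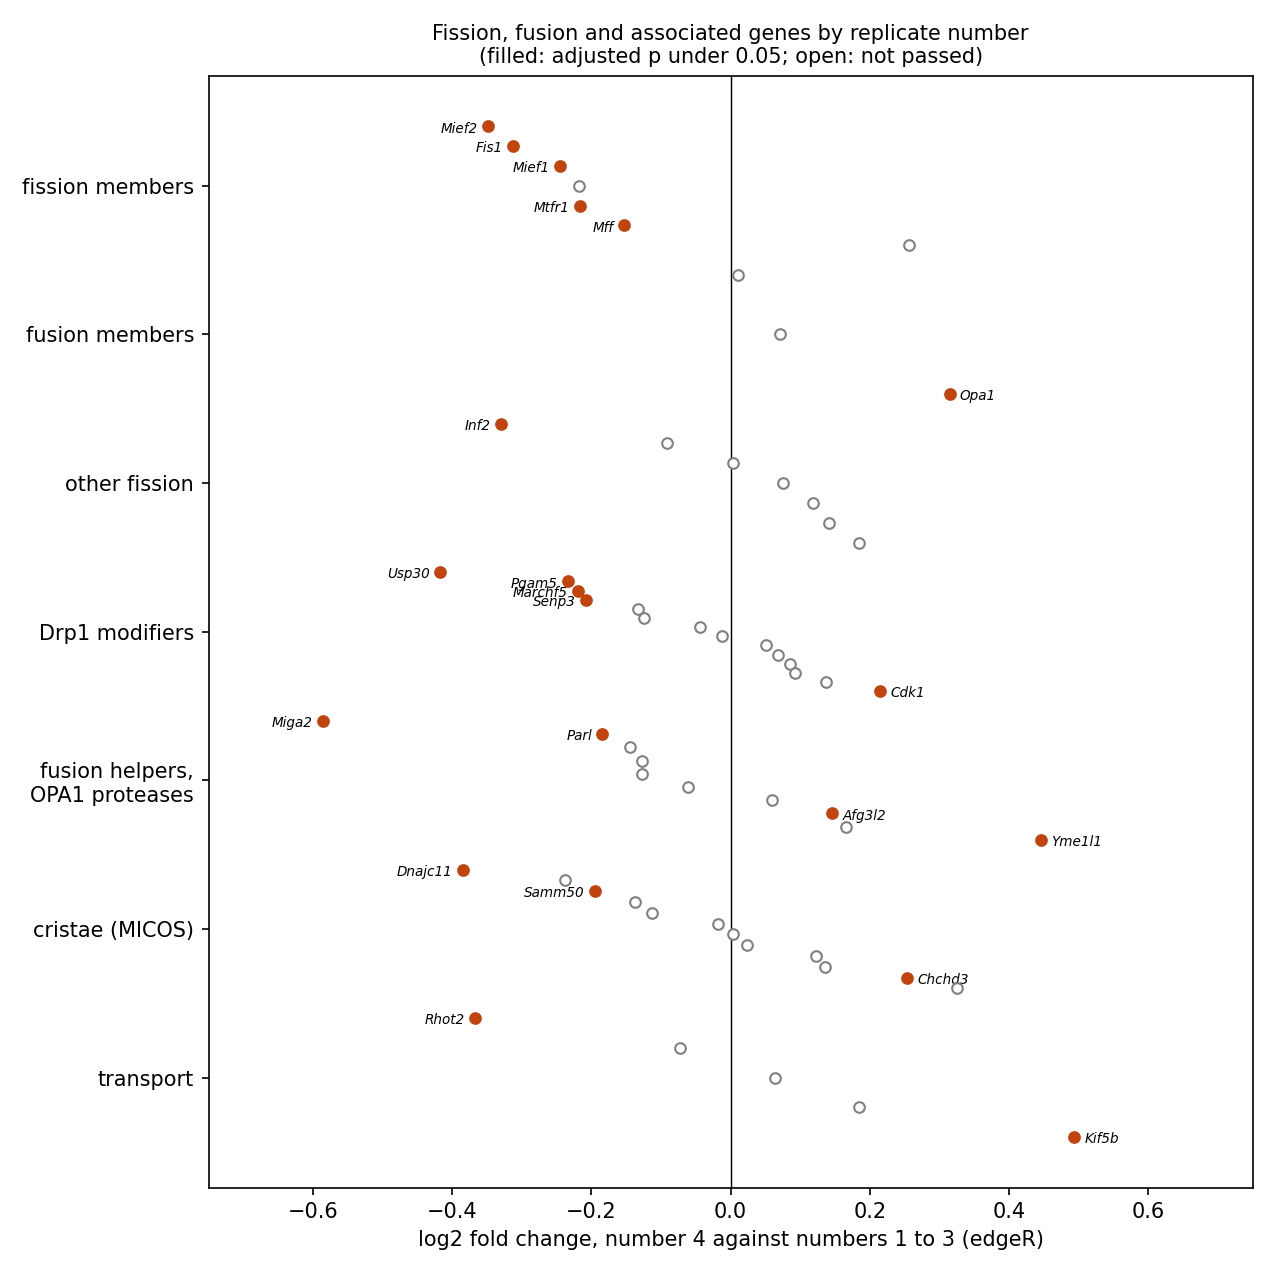
log2 fold change of number 4 against numbers 1 to 3 (horizontal axis) for the 10 fission and fusion genes and the 48 network genes, grouped by list. Filled points passed an edgeR adjusted p of 0.05, and they lie on both sides of 0, from Miga2 at -0.59 to Kif5b at 0.49.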

How the data were processed

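The authors deposited whole-number read counts per gene and TPM values for the same 15767 genes in 12 libraries. The submitters' processing notes list STAR, fastp, StringTie, featureCounts and edgeR and the build GRCm39. Tool versions and roles, strandedness and annotation release remain not given in the sources used here. Each gene's TPM was its counts times a factor constant between libraries to within 2% for 100% of 12466 genes, after scaling for depth. The deposited table gave symbols for 15499 genes, and 260 more were named from a reference table.

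The main test on the counts was that of edgeR 4.0.16 under R 4.3.3 (TMM scaling, filterByExpr, robust quasi-likelihood), leaving 13014 genes, all 10 members among them. The transfection comparisons used a group-only model over all 12 libraries, and the replicate number comparisons a model with group and number. All tests were two-sided. Calling required an adjusted p under 0.05 (Benjamini-Hochberg, over all tested genes). Libraries were grouped by the labelled treatment. Nothing in the labels ties the libraries of a group to separate cultures, and p-values therefore reflect only the spread among these libraries, which may be technical. Scripts were tested on simulated data.

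The members and lists were chosen with earlier results of these data known. Some genes that the rules take are not reported here. All members were named; of the network, the called genes with the greatest changes in each list, or the 3 of smallest p where none was called. Alternatives were DESeq2 1.42.0, no filter, upper-quartile scaling, limma 3.58.1 on log2(TPM + 1) and log2(TPM + 0.1), a replicate block, numbers 1 to 3 alone, no group term, and each library left out. Offsets for GC content and transcript length (splines with 5 degrees of freedom) were added after seeing the data. They were first run with the longest transcript of any kind. After those results were seen, the longest coding transcript was taken instead, because the longest transcript of Mff is a retained intron that put it at 37.3% GC in place of 46.0%. Both versions are kept among the alternatives, and the values in the report are those of the coding version. GENCODE M21 on GRCm38 gave GC content for 12998 of 13014 tested genes and for 3′ UTRs, matched by gene identifier, and no coordinates were carried between builds.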

Additional observations from a re-analysis of the deposited data

Results flagged for a closer look

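In 3 of 30 sets of 4 libraries (10 genes in 3 groups), 1 library lay farther from the other 3 than Dixon's 95% limit, a limit that chance passes in about 1 of 20 sets. Dnm1l had 62.5 CPM in mimic 3, where the next lowest mimic library had 76.3 CPM. Mff had 76.6 CPM in mimic 4, where the next had 88.0 CPM, and Mief2 had 15.9 CPM in mimic 4, where the next had 19.9 CPM. Both of the mimic 4 values belong to genes that were lower in number 4 over the 3 groups. The low value of Dnm1l in control 2 did not pass this limit.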

How the results depend on the processing

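No member was called between transfection groups under any of the alternatives run, the replicate block included. The replicate block called 0 genes of the table and 0 members in each comparison, with 191, 161 and 139 genes at an unadjusted p under 0.05. The labels do not pair the libraries by number, and the block was kept as an alternative because 7 and not all of 12 same-number pairs correlated over 0.1, number 2 reaching as low as -0.0665. The number 4 pairs did correlate, at 0.386 to 0.471, and 9 of 12 libraries correlated best with their own number, which is a hint from the data and not from the design. DESeq2 called 2 genes of the whole table for mimic against control and 4 for mimic against inhibitor, and leaving out 1 library called 0 to 1 in each. For all numbers at once, 5 members were called by DESeq2, without a group term and with either version of the GC and length offsets. With offsets, 16 (longest transcript of any kind) and 18 (longest coding transcript) network genes were called for all numbers at once, and 23 with offsets from the longest transcript of any kind for number 4. The shares of all tested genes called in these settings are not given here, so these counts were not set against a background.

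Signs near 0 changed as follows, in log2, and the cause was not tested. With limma on log2(TPM + 1) and log2(TPM + 0.1), Mff was 0.017 and 0.018 and Mfn2 0.023 and 0.023 for mimic against inhibitor, and Mfn2 -0.0089 and -0.0090 for number 4. With numbers 1 to 3 alone, Mfn2 was -0.00070 for mimic against control, Mief1 -0.017 and Opa1 0.028 for inhibitor against control, and Mff 0.011 for mimic against inhibitor. With coding-transcript offsets, Mff was -0.0068, Mief1 -0.018 and Mtfr1 -0.011 for mimic against control, Opa1 0.0080 for inhibitor against control, Mief1 -0.028 for mimic against inhibitor and Mfn1 -0.00027 for number 4. With offsets from the longest transcript of any kind, Mff was -0.072, Mief1 -0.011 and Mtfr1 -0.0087 for mimic against control, Fis1 0.0021, Mff -0.042 and Opa1 0.0071 for inhibitor against control, and Mief1 -0.020 for mimic against inhibitor.

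With 1 library left out, the mimic against control range was -0.15 to 0.12 for Dnm1l, -0.029 to 0.055 for Mff, -0.045 to 0.093 for Mief1, -0.036 to 0.063 for Mtfr1, -0.047 to 0.13 for Mfn1, -0.0038 to 0.039 for Mfn2 and -0.050 to 0.17 for Opa1. For inhibitor against control it was -0.22 to 0.051 for Dnm1l, -0.12 to 0.048 for Fis1, -0.021 to 0.051 for Mff, -0.054 to 0.041 for Mief1, -0.16 to 0.028 for Mief2, -0.10 to 0.059 for Mtfp1, -0.089 to 0.091 for Mfn1 and -0.11 to 0.11 for Opa1. For mimic against inhibitor it was -0.037 to 0.042 for Mff, -0.040 to 0.093 for Mief1 and -0.013 to 0.0044 for Mfn2, and for number 4 -0.014 to 0.17 for Mfn1 and -0.0070 to 0.028 for Mfn2. The Dnm1l difference ranged from -8.11 to 5.77 CPM for mimic against control and from -11.5 to 2.40 CPM for inhibitor against control. Called members for number 4 ranged from 3 (without inhibitor 4 or control 4) to 8 (without control 2), network genes from 8 to 21 and all genes from 3690 to 6589. For all numbers at once, members ranged from 0 to 7, network genes from 4 to 18 and all genes from 1807 to 5884. On TPM, limma lost the number 4 calls of Mff and Opa1 and gained that of Mtfp1.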
